A study of Mus musculus with 7 samples.

Results

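The genes described here are 48 secreted or cell surface proteins of the extracellular matrix other than collagens: glycoproteins, the proteins of elastic fibres, and proteoglycans together with the hyaluronan synthase Has2. They were taken from the gene count table by symbol, as 48 of its 55484 genes, and all 48 were found. RNA was sequenced from mouse embryonic fibroblasts (MEFs, n = 4 libraries), which are cells grown out of mouse embryos, and from mouse embryonic stem cells (mESCs, n = 3 libraries), which are pluripotent cells derived from the early embryo. The study's methods describe both as cultured cells of a C57/Bl6 background, in the section on the accessibility libraries. No treatment or engineered allele was named, and the study used these RNA data as a reference for calling regulators of reprogramming from chromatin accessibility. A sort on surface markers (THY1 on MEFs, SSEA1 and EPCAM on mESCs) is described for the accessibility libraries but not for the RNA, and the RNA protocol in the labels speaks of blood stem cells. The study's legends call the transcriptional replicates biological, while the labels do not say which libraries came from separate cultures or embryos, so the p-values below measure the spread between these libraries. In the following, libraries are named by letter in falling order of their total counts, MEF a to d and mESC a to c, since the sample numbers cannot be matched to the columns of the table.

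The extracellular matrix is the meshwork of secreted proteins and sugars to which cells attach. Elastic fibres form when elastin is laid on a scaffold of fibrillin microfibrils with the help of fibulins, and small leucine-rich proteoglycans bind collagen fibrils and set their spacing. Matricellular proteins signal to cells rather than bear load, and syndecans and glypicans carry heparan sulfate chains at the cell surface, where they hold growth factors. Fibroblasts are the main producers of such matrix in connective tissue, and mESCs grow as compact epithelial colonies.

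MEFs held more RNA of nearly every one of these genes. Of the 48 genes, 46 had enough counts to be tested, 42 were higher in MEFs and 1, Spp1, was higher in mESCs (edgeR's quasi-likelihood test over all 7 libraries, Benjamini-Hochberg adjusted p under 0.05). Over all 16580 genes tested, 25.0% were higher in MEFs and 22.8% higher in mESCs. Thbs3, Tnxb and Sdc4 did not pass the threshold, although without mESC c Sdc4 was past it and 2 genes were higher in mESCs, and Sdc3 and Gpc1 had too few counts to be tested. The median log2 fold change (MEF over mESC, so that positive values are higher in MEFs) was 4.95 over the 46 tested genes and -0.04 over all genes tested. A fold change of over 100 was fitted for 17 of the 42 genes, and of 4 or less for 1, Fn1. The share of all genes tested with such folds was not counted, so both counts describe the matrix genes only. Of the 17, Ccn3 and Prelp had at most 3 counts in each mESC library, as had Ccn5, and with these 3 genes at the low end of their counting intervals the median was 4.92. For 43 of the 48 genes every MEF library was above every mESC library, which held for 26.2% of all genes tested. The filter on low counts bears on these numbers, because 13 of the 46 genes passed it by their MEF libraries alone. These were Ccn3, Ccn5, Cspg4, Dcn, Efemp1, Fbln5, Fbn1, Fmod, Gpc6, Has2, Ogn, Prelp and Tnmd. Each was tested on the strength of its MEF counts alone, which bears on its call and adjusted p below. Among the 32 genes that passed the filter in the libraries of both cell types, 29 were higher in MEFs, against 24.9% of the 12400 genes that passed it so. In bulk RNA, fewer cells that make a transcript and less of it per cell cannot be told apart.

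Together the 48 genes took 1.16%, 1.51%, 1.20% and 1.42% of all counts in MEF a to d, and 0.261%, 0.246% and 0.211% in mESC a to c. The means were 1.32% ± 0.172 (SD, n = 4) and 0.239% ± 0.0259 (SD, n = 3). Library totals ran from 6528643 to 11441278 counts, and a floor of 3 counts corresponded to 0.289 to 0.479 CPM, the unit of all levels here (counts divided by the library's size as adjusted by edgeR's TMM method, on a scale shared by all libraries), which covers counting error only. The reads came from the 3′ ends of transcripts and were not divided by length, so levels are compared between libraries and not between genes. The labelled cell types matched their markers. All 10 fibroblast markers were higher in MEFs, with summed levels of 23223 to 39679 CPM against 153 to 174 in mESCs. All 10 pluripotency markers were higher in mESCs, with 3248 to 3434 CPM against 33.8 to 36.4 in MEFs.

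**Figure D1:**
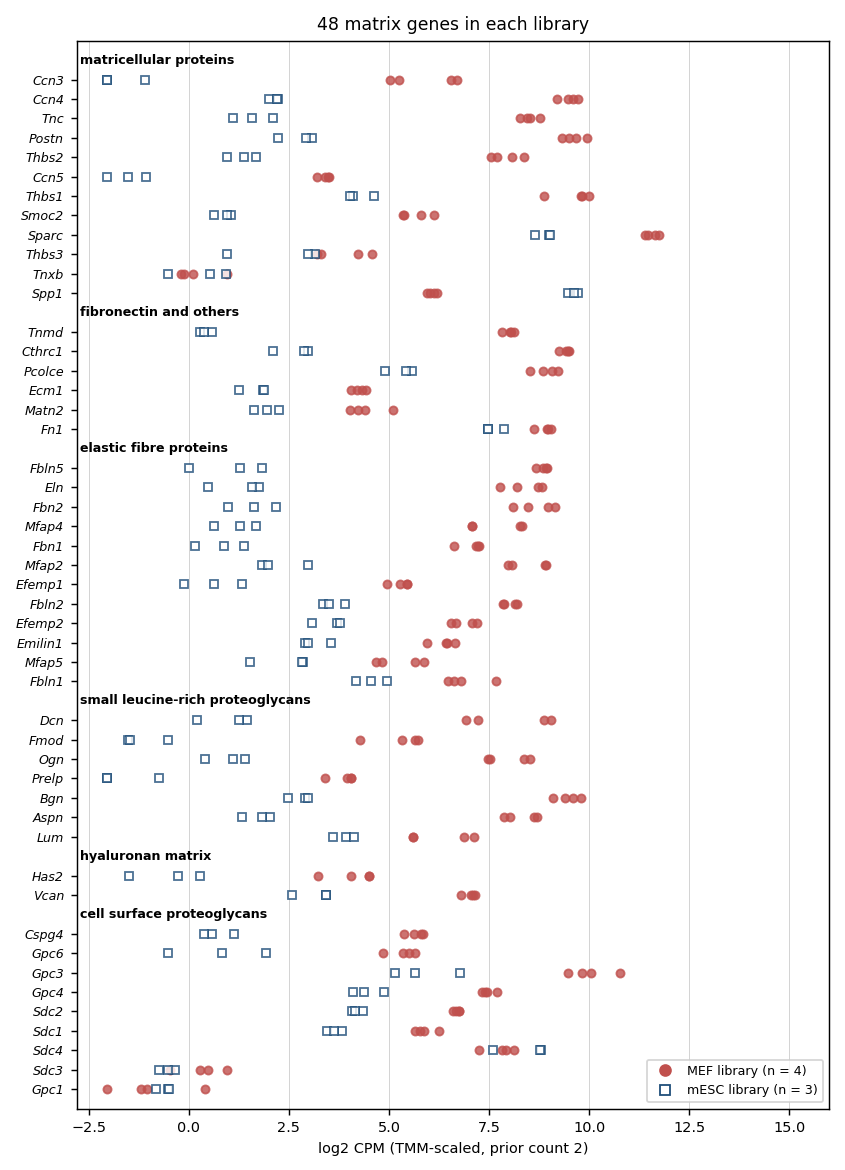
Level of each of the 48 matrix genes in each library, as log2 CPM (TMM-scaled, prior count 2) on the horizontal axis, with genes grouped by role on the vertical axis. Filled circles are the 4 MEF libraries and open squares the 3 mESC libraries. The circles lie to the right of the squares for 43 genes and to the left for Spp1, and the groups overlap for Tnxb, Sdc3, Sdc4 and Gpc1.

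Promoter sequences are shown for 4 of the genes to set side by side genes of opposite direction and genes of one direction with unlike promoters. They were chosen after their values were seen. Spp1 is the only gene higher in mESCs, while Fbln5, Fmod and Ogn, one elastic fibre gene and 2 small leucine-rich proteoglycan genes, were all over 100-fold higher in MEFs. Each line holds the 100 bases before the RefSeq start site (GRCm38.p6), 5′ to 3′ on the gene's strand, at chr5:104435011-104435110 (+) for Spp1, chr12:101819120-101819219 (-) for Fbln5, chr1:134037154-134037253 (+) for Fmod and chr13:49607915-49608014 (+) for Ogn. Capitals mark matches to the motifs given below.
Spp1: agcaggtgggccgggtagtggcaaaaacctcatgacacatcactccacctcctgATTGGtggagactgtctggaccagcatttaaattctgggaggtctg
Fbln5: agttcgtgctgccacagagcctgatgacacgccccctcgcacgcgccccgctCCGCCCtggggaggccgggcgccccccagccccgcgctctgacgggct
Fmod: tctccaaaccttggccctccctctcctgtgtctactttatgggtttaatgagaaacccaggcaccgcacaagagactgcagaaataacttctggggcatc
Ogn: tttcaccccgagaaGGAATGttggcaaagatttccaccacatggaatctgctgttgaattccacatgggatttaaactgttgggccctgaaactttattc

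The Spp1 window held the CCAAT box on the other strand 46 bases before the start, the Fbln5 window a GC box on the other strand at 48 bases, and the Ogn window GGAATG, the letters bound by TEAD factors, at 86 bases. In the Fmod window none of the 6 motifs was found. Promoters were given for 30 of the 48 genes, and 6 motifs were searched on both strands in the 250 bases before the start, none of which contains another. The GC box GGGCGG was in 18 of 30 promoters (60%, against 32.9% of 27025 mouse promoters). The TATA box TATAAA was in 6 of 30 (20% against 13.0%), and CCAAT in 9 of 30 (30.0% against 34.5%). The AP-1 motif TGANTCA was in 3 of 30 (10.0% against 6.87%), GGAATG in 2 of 30 (6.67% against 12.6%) and the octamer ATGCAAAT in 1 of 30 (3.33% against 1.61%). The density of CpG, as observed over expected, had a median of 0.378 in the 30 promoters and 0.378 in all, and it differed between genes with similar fold changes, with 0.824 for Fbln5, 0.367 for Ogn and 0.123 for Fmod. A match of letters is a description and not a bound site.

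Among the 12 matricellular genes, 9 were higher in MEFs, 1 was higher in mESCs and 2 did not pass the threshold. Ccn3 (chr15:54745702-54754039, coordinates of genes here and below from GENCODE M21 on GRCm38), a secreted protein of the CCN family, held 32.4, 93.2, 38.0 and 104 CPM in MEF a to d, and had 0, 2 and 0 counts in mESC a to c. All MEF libraries were far above the mESC libraries, and MEF b and d were above MEF a and c. With at most 3 counts in each mESC library the fitted log2 fold change of 9.52 (SE 0.82, Benjamini-Hochberg adjusted p = 5.18e-06, edgeR quasi-likelihood test) is no bound, and it was 12.09 without mESC b, which held both counts. The pooled ratio was 842 (95% exact interval 233 to 6954, counting error only). Ccn4 (chr15:66891320-66923201), a CCN protein induced by WNT signalling, held 844, 709, 774 and 586 CPM in MEFs and 4.46, 3.77 and 4.39 in mESCs. Its libraries of one cell type lay close together, and the log2 fold change was 7.43 (SE 0.21, Benjamini-Hochberg adjusted p = 6.03e-09, edgeR quasi-likelihood test). Ccn5, the third CCN gene among the 48, had 1, 0 and 2 counts in mESCs and a pooled ratio of 89.7 (95% exact interval 30.4 to 437).

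The large hexameric protein Tnc, an adhesion modulator, and Postn, a collagen-binding protein of injured and embryonic connective tissue, were higher in MEFs with log2 fold changes of 6.97 and 6.89. Thbs2, a thrombospondin, followed with 6.71, Thbs1, a thrombospondin known as an activator of latent TGF-beta, with 5.42, and Smoc2, a calcium-binding relative of Sparc, with 4.98. Sparc, a collagen-binding protein of remodelling tissue, differed least of the 9, with 3026 ± 334 CPM in MEFs (SD, n = 4) and 479 ± 66.6 in mESCs (SD, n = 3), a log2 fold change of 2.66. It was therefore well above the floor in both cell types.

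Spp1 (osteopontin, an integrin-binding phosphoprotein, chr5:104435118-104441050) ran the other way. It held 73.0, 65.1, 61.4 and 69.2 CPM in MEF a to d and 839, 714 and 791 in mESC a to c. Every mESC library was above every MEF library, by a factor of about 11.6 in the fit (log2 fold change -3.54, SE 0.13, Benjamini-Hochberg adjusted p = 2.15e-08, edgeR quasi-likelihood test). The annotated exons of Spp1 share 18.8% of their bases with the same-strand gene Gm42793, and the part of this overlap in the counts was not tested.

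Tnxb (tenascin X, which binds fibrillar collagen, chr17:34670535-34719815) had 7, 7, 11 and 4 counts in MEFs and 11, 4 and 14 in mESCs. Its libraries overlapped, and a difference was not detectable at this depth (log2 fold change -0.21, SE 0.65, Benjamini-Hochberg adjusted p = 0.813, edgeR quasi-likelihood test). The sign turned without mESC c (0.20), and 6.41% of its 50-base sequences occur elsewhere, most in Tnxa. Thbs3 (chr3:89215180-89226837), a thrombospondin that forms pentamers, held 9.64, 18.5, 9.04 and 23.8 CPM in MEFs and 8.71, 1.71 and 7.59 in mESCs. Every MEF library was above every mESC library, but MEF a and c were only just above mESC a. The log2 fold change of 1.34 (SE 0.54) did not pass the threshold (Benjamini-Hochberg adjusted p = 0.0615, edgeR quasi-likelihood test), and it passed without MEF a (1.52) and without MEF c (1.53).

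**Figure D2:**
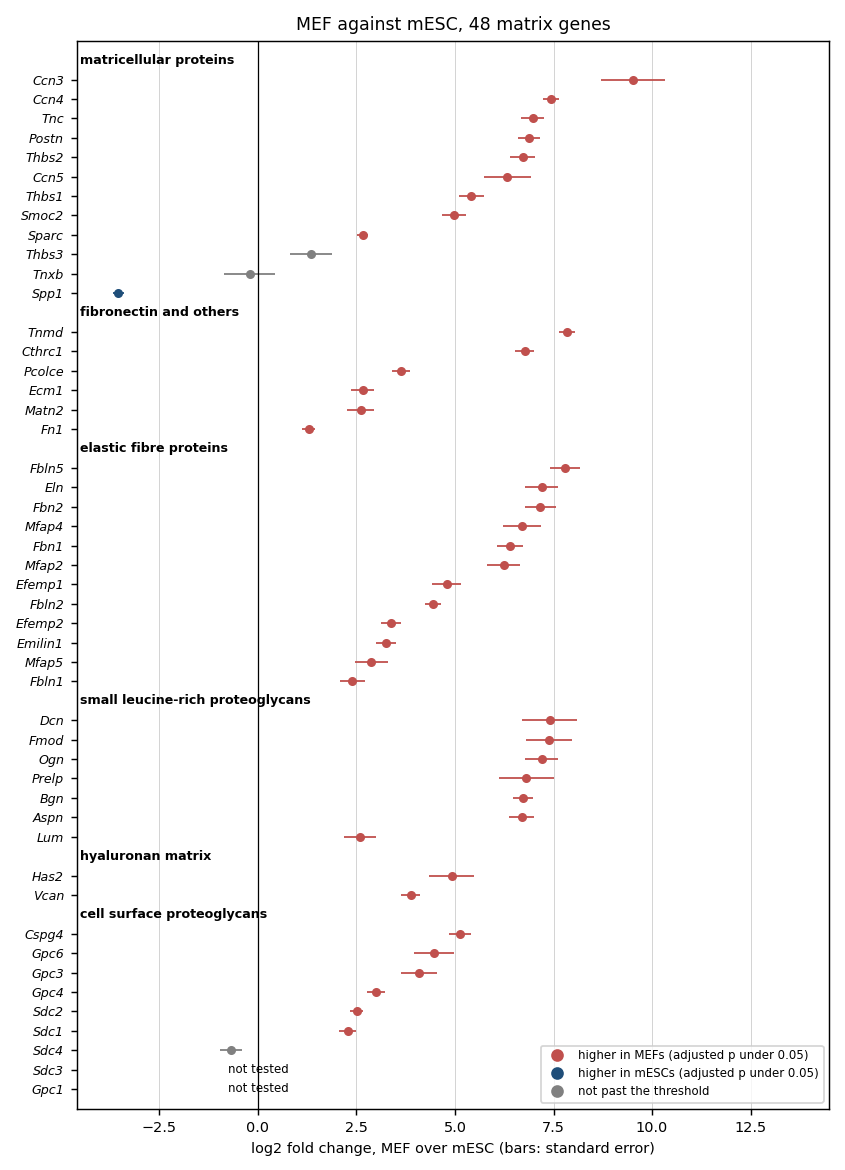
Fitted log2 fold change (MEF over mESC, horizontal axis) with its standard error for the 46 tested genes, grouped by role and sorted within it on the vertical axis. Colours mark genes higher in MEFs, higher in mESCs and not past an adjusted p of 0.05. Ccn3 has the largest value (9.52), Spp1 (-3.54) is the only one past the threshold on the left, and Sdc3 and Gpc1 were not tested.

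All 6 genes of fibronectin and other secreted or membrane glycoproteins were higher in MEFs, over a wide range. Tnmd (tenomodulin, a membrane glycoprotein known from tendon, chrX:133850980-133865577) held 228, 262, 278 and 258 CPM in MEFs and 0.980, 1.26 and 1.07 in mESCs. The MEF libraries differed by at most 1.22 times, and the log2 fold change was 7.85 (SE 0.21, Benjamini-Hochberg adjusted p = 5.94e-09, edgeR quasi-likelihood test). Tnmd is itself 1 of 3 tendon markers, with Scx and Mkx. Besides Tnmd, 1 of these was higher in MEFs and 1 did not pass the threshold. Cthrc1 (chr15:39076932-39087121), a secreted protein of migrating fibroblasts, held 714, 721, 688 and 607 CPM in MEFs and 7.62, 7.08 and 4.03 in mESCs, again with little spread between MEF libraries. Its log2 fold change was 6.77 (SE 0.25, Benjamini-Hochberg adjusted p = 2.15e-08, edgeR quasi-likelihood test). Pcolce, which enhances the trimming of procollagen, had a log2 fold change of 3.63, and Ecm1 and the matrilin Matn2 had 2.66 and 2.61. Fn1 (fibronectin, the adhesive ligand of integrins) differed least among the 42, with 479 ± 59.3 CPM in MEFs (SD, n = 4) and 196 ± 33.2 in mESCs (SD, n = 3). The log2 fold change of 1.29 was the only one of the 42 that did not pass a test against a fold change of 2.

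All 12 genes of the elastic fibre were higher in MEFs, with log2 fold changes of 2.39 to 7.79 and a median of 5.51. Fbln5 (fibulin 5, which guides elastin onto microfibrils, chr12:101746565-101819055) held 482, 405, 496 and 463 CPM in MEF a to d and 0.762, 2.17 and 3.32 in mESC a to c. The MEF libraries were nearly level while the mESC libraries, with 7, 19 and 28 counts, were not, and the log2 fold change was 7.79 (SE 0.39, Benjamini-Hochberg adjusted p = 1.23e-07, edgeR quasi-likelihood test). Eln (elastin itself, chr5:134702593-134747323) held 219, 423, 292 and 456 CPM in MEFs and 3.16, 1.14 and 2.73 in mESCs. MEF b and d were the higher libraries, and the log2 fold change was 7.20 (SE 0.42, Benjamini-Hochberg adjusted p = 3.39e-07, edgeR quasi-likelihood test). The fibrillins, which form the microfibril, followed with 7.17 for Fbn2 and 6.40 for Fbn1, whose exons overlap the antisense gene Gm9913 in 20.1% of their bases.

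Of the genes for proteins attached to microfibrils, Mfap4 had a log2 fold change of 6.70, Mfap2 of 6.23 and Mfap5 of 2.88. The fibulin relatives Efemp1 and Efemp2, the second of which is needed for elastin crosslinking, had 4.79 and 3.37, and Fbln2, a fibulin of elastic fibres and basement membranes, had 4.45. Emilin1, a glycoprotein at the interface of elastin and microfibril, had 3.25. Fbln1, also found in elastic fibres and in blood plasma, had the smallest value of the 12, 2.39, with 125 ± 52.7 CPM in MEFs (SD, n = 4) and 23.9 ± 6.43 in mESCs (SD, n = 3).

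All 7 small leucine-rich proteoglycans or their relatives were higher in MEFs, and 6 of them, all but Lum, were over 100-fold higher in the fit. Of the 7, Dcn, Fmod, Ogn and Prelp passed the filter on low counts by their MEF libraries alone. Dcn (decorin, which coats collagen fibrils and binds TGF-beta, chr10:97479609-97518143) held 122, 469, 149 and 525 CPM in MEF a to d and 2.50, 0.913 and 2.13 in mESC a to c. The groups did not overlap, although MEF b and d were over 3 times MEF a and c, and the log2 fold change was 7.40 (SE 0.70, Benjamini-Hochberg adjusted p = 1.11e-05, edgeR quasi-likelihood test). Fmod (fibromodulin, chr1:134037254-134048277), which also regulates fibril assembly, held 19.0, 50.1, 40.1 and 53.0 CPM in MEFs and had 1, 4 and 1 counts in mESCs. Its lowest MEF library was MEF a, and the log2 fold change was 7.38 (SE 0.58, Benjamini-Hochberg adjusted p = 2.63e-06, edgeR quasi-likelihood test) and 8.30 without mESC b. Lum (lumican, needed for corneal collagen order, chr10:97565128-97572703) stood apart from the other 6, with 48.5, 117, 48.2 and 140 CPM in MEFs and 15.0, 17.1 and 11.9 in mESCs. Its mESC libraries, with 100 to 150 counts, were well above the floor, and the log2 fold change was 2.59 (SE 0.41, Benjamini-Hochberg adjusted p = 0.000402, edgeR quasi-likelihood test).

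Ogn (osteoglycin), Bgn (biglycan, the closest relative of decorin) and Aspn (asporin, which lacks the chain attachment of decorin) had log2 fold changes of 7.20, 6.73 and 6.69. Prelp, a basement membrane anchor, had 0, 0 and 3 counts in mESCs and a pooled ratio of 124 (95% exact interval 42.2 to 604), and 9.68% of its exon bases overlap the antisense gene Gm15851. Some of these genes lie side by side. Dcn and Lum are 47.0 kb apart on chromosome 10 with no coding gene between them, and their log2 fold changes were 7.40 and 2.59. Prelp and Fmod are 115.8 kb apart on chromosome 1, with 6.81 and 7.38, and Aspn and Ogn are 40.5 kb apart on chromosome 13, with 6.69 and 7.20. Between these last lies Omd, a further gene of the family, with a log2 fold change of 1.29. Of genes of other roles, Smoc2 and Thbs2 are 260.7 kb apart on chromosome 17 with no coding gene between them, with 4.98 and 6.71. These values were set side by side with no test.

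Both genes of the hyaluronan matrix were higher in MEFs. Has2 (chr15:56665627-56694539), which synthesizes hyaluronan at the plasma membrane, held 22.4, 9.15, 22.4 and 16.3 CPM in MEFs and had 9, 1 and 5 counts in mESCs. Here MEF b was the lowest MEF library, and the log2 fold change was 4.92 (SE 0.58, Benjamini-Hochberg adjusted p = 5.02e-05, edgeR quasi-likelihood test) and 5.59 without mESC a. Vcan (versican, the large proteoglycan that binds hyaluronan, chr13:89655312-89742509) held 136, 142, 112 and 132 CPM in MEFs and 5.77, 10.5 and 10.4 in mESCs. Its groups were widely separated, with a log2 fold change of 3.87 (SE 0.25, Benjamini-Hochberg adjusted p = 6e-07, edgeR quasi-likelihood test).

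The 9 cell surface proteoglycans were the role with the smallest median difference, 2.99 over the 7 tested, of which 6 were higher in MEFs. Cspg4 (NG2, a membrane chondroitin sulfate proteoglycan known from pericytes and glial precursors, chr9:56865033-56899870) held 57.5, 48.8, 55.6 and 41.4 CPM in MEFs and 1.96, 1.26 and 1.07 in mESCs. Its log2 fold change of 5.13 was the largest of this role (SE 0.29, Benjamini-Hochberg adjusted p = 2.54e-07, edgeR quasi-likelihood test). Gpc6, a glypican (chr14:116925315-117976544), held 28.7, 49.8, 40.3 and 44.7 CPM in MEFs and 1.52, 0.457 and 3.56 in mESCs. The mESC libraries held 14, 4 and 30 counts, and the log2 fold change was 4.47 (SE 0.50, Benjamini-Hochberg adjusted p = 3.81e-05, edgeR quasi-likelihood test) and 5.34 without mESC c. The glypicans Gpc3 and Gpc4, neighbours 107.2 kb apart on chromosome X, had log2 fold changes of 4.09 and 2.99. Sdc2 and Sdc1, syndecans of mesenchymal and of epithelial cells, had 2.51 and 2.28.

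Sdc4 (syndecan 4, a receptor of focal adhesions, chr2:164424247-164443887) held 241, 226, 280 and 151 CPM in MEF a to d and 448, 440 and 192 in mESC a to c. The level in mESC c lay within the range of the MEF libraries, while mESC a and b were above all of them. The log2 fold change was -0.68 (SE 0.29) and did not pass the threshold (Benjamini-Hochberg adjusted p = 0.0743, edgeR quasi-likelihood test). Without mESC c it was -0.98, past the threshold (Benjamini-Hochberg adjusted p = 0.00542, edgeR quasi-likelihood test). Sdc3, a syndecan of the nervous system, had 12, 8, 11 and 3 counts in MEFs and 5, 4 and 3 in mESCs, and Gpc1, a glypican, had 2, 2, 7 and 0 in MEFs and 3, 4 and 4 in mESCs. Most of these libraries were close to the floor of 3 counts, and differences were not detectable at this depth. Exon bases of Gpc1 overlap the antisense gene Ankmy1 over 18.9%, and those of Sdc3 overlap antisense genes over 7.73%. The strand setting of the counting is not given in the sources used here, and the part of these overlaps in the low counts was not tested.

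The spread between MEF libraries had a median near that of other genes, not matched in depth, and it fell unevenly on the libraries. For the 45 matrix genes with a mean of at least 20 MEF counts, the ratio of the highest to the lowest MEF library had a median of 1.63, against 1.66 for the 13069 genes tested with such a mean. The ratio was over 2 for 15 of 45 (33.3%, against 32.3% of those genes). The sets were not matched in count level, and counting error widens the ratio more at low counts. Their near-equal medians therefore do not show an equal spread beyond counting error. It was largest for Dcn (4.31), Ccn3 (3.21), Lum (2.91), Fmod (2.79) and Thbs3 (2.63), and smallest for Sdc2 (1.12). In all of these 5 genes MEF b and d were the highest pair of libraries. Without MEF a the ratio of Fmod was 1.32. MEF b and d were the highest pair for 25 of the 45 genes (55.6%, against 23.8% of the 13069 genes), and MEF a and c for 8 (17.8% against 22.9%). The pattern was not particular to the matrix genes. Of the fibroblast markers, MEF b and d were also the highest pair for Pdgfra, Pdgfrb, Twist1, Twist2, Prrx1, Snai2, Col1a2 and Col3a1. They were not the highest pair for Thy1 and Col1a1. MEF a was the lowest library for 21 of the 45 genes (46.7%, against 24.1% of the 13069 genes). Has2, Thbs1 and Matn2 did not follow the pair, with MEF b lowest for Has2, MEF d for Thbs1 (464 CPM against 889 to 1015) and MEF c highest for Matn2 (34.2 CPM against 16.2 to 20.8).

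**Figure D3:**
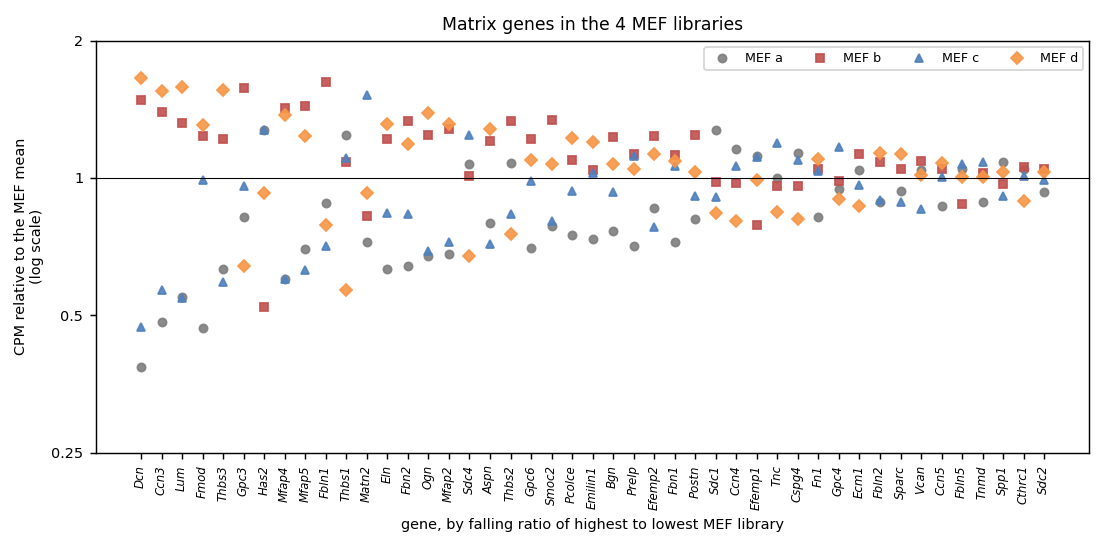
CPM of each MEF library relative to the mean of the 4 MEF libraries, on a log scale, for the 45 matrix genes with a mean of at least 20 MEF counts, sorted by falling ratio of the highest to the lowest library. Marker shapes are the 4 libraries. At the left, from Dcn to Thbs3, MEF b and d lie above the mean and MEF a and c at or below it, while at the right, at Sdc2, the libraries differ by 1.12 times.

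The same pair of MEF libraries was also high in the Y-linked genes Ddx3y, Eif2s3y and Kdm5d, which together held 2.12, 91.0, 0.613 and 88.8 CPM in MEF a to d. In mESC a to c they held 1.74, 1.83 and 36.0 CPM. The part of whatever separates these libraries in the spread of the matrix genes was not tested. With each of the 7 libraries left out in turn, 42 or 43 of the matrix genes were higher in MEFs.

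Most of the matrix genes were low in mESCs relative to MEFs. Only Ccn3, Ccn5 and Prelp had at most 3 counts in every mESC library. For Spp1, Sdc4, Tnxb and Gpc1 the mESC mean was above the MEF mean. The mESC mean as a share of the MEF mean had a median of 3.40% over the 48 genes, and it was under 2% for 20 of the 46 tested. For the 10 fibroblast markers, a list including the collagens Col1a1, Col1a2 and Col3a1, this share ran from 0.412% to 8.05% with a median of 1.29%. For 29 of the tested matrix genes the share was no higher than the highest of these marker shares. The other tested matrix genes were higher in mESCs relative to MEFs than any fibroblast marker, and they included Sparc (15.8%), Lum (16.6%), Fbln1 (19.1%), Sdc1 (20.6%) and Fn1 (41.0%). The counts of 20 and 29 were not made over all genes tested, so they describe the matrix genes only. Whether a few fibroblast-like cells contributed to the mESC libraries was not tested.

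Markers of other cell types that such cultures could hold were summed in the same way. The 5 primitive endoderm markers, of a lineage of the early embryo that secretes matrix, had summed levels of 83.8 to 143 CPM in MEFs and 22.8 to 81.9 in mESCs, and 1 of the 2 that were tested was higher in MEFs. Dab2 (57.1 to 108 CPM in MEFs, 10.1 to 46.0 in mESCs) and Gata6 (25.9 to 35.0 and 8.89 to 26.1) made up most of these sums. Sox17 and Foxa2 were at 0 in every MEF library, and Gata4 was at 0 in all but MEF c, where it had 5 counts. These 3 genes had too few counts to be tested. For each of them every mESC library was above every MEF library, opposite to the sums. Summed levels in MEFs and mESCs were 17.1 to 26.3 and 32.6 to 56.3 CPM for 6 endothelial markers, and 15.5 to 30.9 and 19.9 to 29.7 for 6 macrophage markers. They were 8.79 to 17.3 and 6.16 to 12.0 for 6 chondrocyte markers, 240 to 285 and 3.79 to 4.91 for the 3 tendon markers, which include Tnmd, and 26.6 to 36.3 and 13.6 to 33.1 for 5 muscle markers. For 4 Schwann cell and neural crest markers they were 1.32 to 2.76 and 13.4 to 18.5, and for 5 epithelial markers 46.8 to 74.4 and 323 to 398. These sums hide single genes. Pecam1 alone held 22.1, 38.5 and 29.5 CPM in mESC a to c. It was the 1 endothelial marker past the threshold, higher in mESCs. Tnmd alone held 228 to 278 CPM in MEFs. Of the epithelial markers, 2 were higher in MEFs and 2 in mESCs. Of the 4 tested chondrocyte markers, 2 were higher in MEFs and 1 in mESCs. Of the 3 tested muscle markers 1 was higher in MEFs, and of the 3 tested macrophage markers 1, Cd68, was higher in mESCs. The 2 tested markers of Schwann cells and neural crest were higher in mESCs. The cells behind these levels were not tested.

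Further genes of the pathway were set beside the 48 as 3 lists. Of 43 related core proteins not among the 48, 29 were tested, of which 13 were higher in MEFs and 6 in mESCs (25.0% and 22.8% over all genes), with a median log2 fold change of 1.29. The number higher in mESCs was thus near the share over all genes, and it was 3 without mESC c. Srpx, a sushi-repeat protein, held 51.8, 72.7, 34.3 and 80.8 CPM in MEFs and had 1, 0 and 5 counts in mESCs (log2 fold change 7.94). Thbs4, a thrombospondin of tendon and muscle, had 70, 62, 65 and 109 counts in MEF a to d and 0, 1 and 0 in mESCs, so its fitted value of 7.61 is no bound. On the other side, Smoc1, the paralog of Smoc2, had 0, 4, 6 and 6 counts in MEFs and 41, 17 and 77 in mESCs (-3.19). Bcan (brevican, a hyaluronan-binding proteoglycan of brain) had 5, 3, 8 and 5 counts and 29, 32 and 53 (-2.62). Smoc1 and Smoc2 thus differed in opposite directions, as Smoc2 was 4.98 higher in MEFs on the log2 scale.

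Of the 32 enzymes of glycosaminoglycan chain synthesis, all tested, 27 were higher in MEFs and 1 in mESCs, with a median log2 fold change of 1.75, against 25.0% and 22.8% over all genes. Tested against a fold change of 2, 15 remained higher in MEFs. Hs6st2, a heparan sulfate 6-O-sulfotransferase, held 119, 93.1, 112 and 84.4 CPM in MEFs and 4.03, 1.60 and 1.19 in mESCs (log2 fold change 5.47). Its paralog Hs6st1 held 1.73, 5.78, 1.07 and 3.99 CPM in MEFs and 12.6, 11.5 and 8.06 in mESCs (-1.77), and was the 1 gene of the list higher in mESCs, a call lost without mESC a. Papss2, which like Papss1 makes the donor used by the sulfotransferases of the list, held 31.8, 33.6, 37.8 and 24.4 CPM in MEFs and 1.42, 1.48 and 0.711 in mESCs (4.71). Of 14 genes that edit heparan sulfate or make, bind or degrade hyaluronan, 11 were tested, of which 5 were higher in MEFs and 1 in mESCs (2 without mESC c), beside the same 25.0% and 22.8% over all genes. Cd44, the main hyaluronan receptor, held 428, 246, 488 and 225 CPM in MEFs and 6.97, 9.02 and 1.07 in mESCs (5.92), and MEF a and c were its higher libraries. Sulf1, which removes 6-O-sulfate outside the cell, held 74.9, 141, 84.4 and 95.9 CPM in MEFs and 7.73, 7.53 and 7.23 in mESCs (3.72). Hmmr, a hyaluronan-binding protein that is also a mitotic spindle protein, held 107, 69.7, 69.2 and 57.5 CPM in MEFs and 168, 264 and 193 in mESCs (-1.45).

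**Figure D4:**
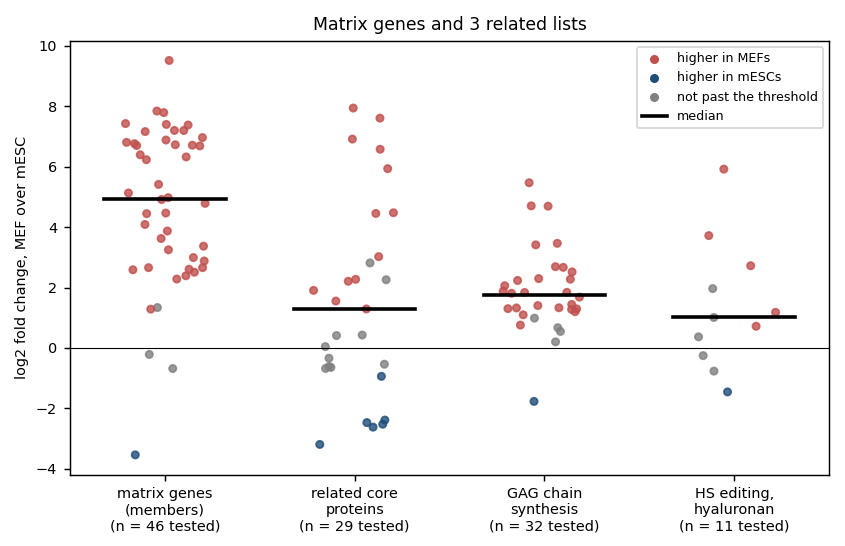
Fitted log2 fold change (MEF over mESC, vertical axis) of each tested gene in the 48 matrix genes, 43 related core proteins, 32 enzymes of glycosaminoglycan (GAG) chain synthesis and 14 genes of heparan sulfate (HS) editing and hyaluronan. Points are genes, colours mark the call at an adjusted p of 0.05, and the thick line is the median, which is 4.95, 1.29, 1.75 and 1.01 from left to right.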

How the data were processed

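Bulk RNA-seq was measured in MEFs (n = 4 libraries) and mESCs (n = 3) with a 3′-biased library type. The authors sorted reads by sample index, trimmed and aligned them (STAR, mm10), merged reads with the same molecular identifier (Je), and counted those that mapped to a single place over exons (featureCounts). The deposited values are whole-number counts per gene without normalization. The annotation release and strand setting are not given in the sources used here. Column names give the cell type with the same number in every column, then a letter and a number that are not explained. The letter differs between the cell types and is the same within each. In all, 0 columns were left unused.

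Counts were tested with edgeR 4.0.16 (R 4.3.3, limma 3.58.1; TMM, filterByExpr, quasi-likelihood test, two-sided, no covariates), with Benjamini-Hochberg adjustment over all 16580 genes tested at 0.05. Code was tested on simulated data. Alternatives were DESeq2 1.42.0, 3 other scalings, 2 other filters, a test against a fold change of 2, and leaving out each library. The matrix genes, related lists and marker lists were chosen with earlier results of these data known. Given with every library's value were the 2 genes per role with the largest change towards MEFs, all genes not past the threshold towards MEFs, the 5 with the largest MEF spread, and the 2 largest in each direction of each related list. Other genes and the 4 promoters were named after their values were seen. Exon overlaps and 50-base sequences came from GENCODE M21 on GRCm38, promoters from RefSeq (GRCm38.p6). Library totals were 6528643 to 11441278 counts, which limited the precision for genes of low count.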

Additional observations from a re-analysis of the deposited data

Results flagged for a closer look

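In 1 of the 48 matrix genes the lowest MEF library lay far from the others, by more of the whole range than Dixon's limit for 4 libraries allows. Fbn1, a fibrillin of the microfibril, held 98.7 CPM in MEF a, against 145 to 153 CPM in MEF b to d, a gap of 0.853 of the range. About 2.4 such genes are expected at 1 in 20, and every library of Fbn1 in MEFs was above the 0.871 to 2.37 CPM in mESCs.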

How the results depend on the processing

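No paired analysis was possible because the column names do not carry the samples' own numbers. The number of matrix genes higher in MEFs was 42, and 41 to 43 under the alternatives, with the same 42 called in each except the test against a fold change of 2, which lost Fn1. Sdc4 joined Spp1 as higher in mESCs, making 2, with library size only, with every gene of at least 1 count, and without mESC c. Its log2 fold change was then -0.97, -0.64 and -0.98. Thbs3 passed the threshold with DESeq2 (1.34, adjusted p = 0.0269, DESeq2's Wald test), with every gene of at least 1 count (1.37), and without MEF a or c. Tnxb ranged from -0.57 to 0.20 in the fits without 1 library that tested it, was 0.20 without mESC c, and passed the threshold in none of the 12 alternatives that tested it. It was not tested without MEF c or under the stricter filter of 10 counts. Scaling by library size only moved the median over all genes tested, on the log2 scale, from -0.04 to -0.32, with 3334 genes higher in MEFs and 5205 in mESCs in place of 4153 and 3785. The test against a fold change of 2, stricter by construction, left 2277 and 1714 genes, 15 and 0 of the chain synthesis enzymes, and 3 genes of heparan sulfate editing and hyaluronan higher in MEFs. In that last list 2 genes were higher in mESCs with DESeq2, with library size only and with every gene of at least 1 count. Leaving out each library in turn gave 1 to 2 matrix genes higher in mESCs, 3 to 5 related core proteins (3 without mESC c), 0 to 1 chain synthesis enzymes (0 without mESC a) and 1 to 2 genes of the last list (2 without mESC c). The cause was not tested. The median MEF ratio of the matrix genes was 1.67 over library totals and 1.36 to 1.60 with each MEF library left out, and the ratio of Fmod was 1.32 without MEF a. Depth limits Sdc3, Gpc1 and Tnxb in both cell types and Ccn3, Ccn5 and Prelp in mESCs.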
